A study of Bos grunniens with 6 samples.

Results

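The microRNA (miRNA) family of miR-130, miR-301 and miR-454 was described in cultured yak (Bos grunniens) hair follicle cells. Its members were taken by name, as the rows of the deposited table called miR-130a, miR-130b, miR-301a, miR-301b or miR-454 once the cattle prefix was removed, which gave 5 of 2853 entries, 1 for each name. The 2 groups were dermal papilla cells, which form the mesenchymal core of the hair bulb, and hair matrix cells, the epithelial cells that divide around this core and build the hair shaft. Each group had 3 small RNA libraries. All cells came from yak skin, were labelled wild type, and were grown in DMEM/F12 with antibiotics, serum (10%), EGF at 20 ng/mL and IGF1 at 10 ng/mL, so both groups carried the same growth factors. The labels call the libraries biological replicates without naming animals or cultures, so p-values cover only the spread among these libraries, which may be technical. The comparison asks whether the level of each member differs between the 2 cell types, the question in the title of the series.

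A miRNA guides Argonaute proteins to messenger RNAs that pair with its seed, the bases near its 5′ end, and miRNAs with the same seed can repress the same messages. In human and mouse cells, members of this family are known to repress receptors and SMAD proteins of TGF-beta and BMP signalling, among them TGFBR2 and SMAD4, and other genes such as PPARG. TGF-beta and BMP signals pass between papilla and matrix and take part in starting and ending hair growth. In the human genome miR-130b lies beside miR-301b, miR-301a and miR-454 lie together in an intron of SKA2, and miR-130a has a locus of its own. Positions in the yak genome were not used here.

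The mature sequences listed in the deposited table are given 5′ to 3′ as DNA letters with the seed, bases 2 to 8, in capitals, because the shared seed is what defines the family and the remaining bases tell its members apart:
bta-miR-130a: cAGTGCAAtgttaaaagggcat
bta-miR-130b: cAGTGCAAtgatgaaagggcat
bta-miR-301a: cAGTGCAAtagtattgtcaaagcat
bta-miR-301b: cAGTGCAAtgatattgtcaaagcat
bta-miR-454: tAGTGCAAtattgcttatagggt

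All 5 members had the seed AGTGCAA, and no other entry of the table, named or predicted, had this seed at bases 2 to 8 or held these 7 letters elsewhere. A message pairing with the whole seed would read TTGCACT. Beyond the seed the members fell into 2 close pairs and 1 single sequence. Counted from 1 at the 5′ end, with the base of the a-form given before the position and the base of the b-form after it, miR-130a and miR-130b differed by T11A and A13G (90.9% identity over 22 bases), and miR-301a and miR-301b by A10G and G11A (92.0% over 25 bases). miR-454 was 45.5% to 56.5% identical to the others and began with T, where the other 4 began with C. The miR-301 entries were 25 bases long, a length reached by 9 of the 503 entries tested (1.79%), whose median length was 22 bases. How the authors assigned reads that match several entries is not given in the sources used here, and no entry outside the family lay within 2 mismatches of a member over at least 18 bases.

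The family was a minor part of the small RNA in both cell types, and the means of each member lay less than 2-fold apart. Levels are given as RPM, the reads of an entry divided by the total of its library and scaled to a common total, with no scaling by length. Together the 5 members had 34.7, 32.2 and 33.0 RPM in dermal papilla cells, against 36.8, 33.9 and 37.1 RPM in hair matrix cells. The ranges of the groups overlapped, and the ratio of mean sums was 0.927. The 4 members other than miR-454 summed to 27.4, 25.8 and 27.4 RPM in dermal papilla cells, against 32.5, 29.5 and 32.4 RPM in hair matrix cells. Without miR-454 the groups did not overlap, as in 84.1% of tested entries, and the ratio of mean sums was 0.853. miR-454 was left out as the only member with a higher mean in dermal papilla cells, so this separation is no test. The sums of all 5 were 0.00459% ± 0.000186 of the listed reads in dermal papilla cells, against 0.00495% ± 0.000237 in hair matrix cells (SD, n = 3 each).

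The order of the members by mean level was the same in both cell types, with miR-130b highest, then miR-130a, miR-454, miR-301a and miR-301b. In dermal papilla cells no neighbours in this order overlapped over the 3 libraries. In hair matrix cells the ranges of miR-301a and miR-301b overlapped, although miR-301a was the higher in each of the 6 libraries. Among the 503 tested entries the members ranked 213th, 234th, 272nd, 365th and 419th by mean level over all libraries. Each library rested on 23904796 to 24693655 reads, so that 1 member had between 22 and 432 reads in a library.

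**Figure D1:**
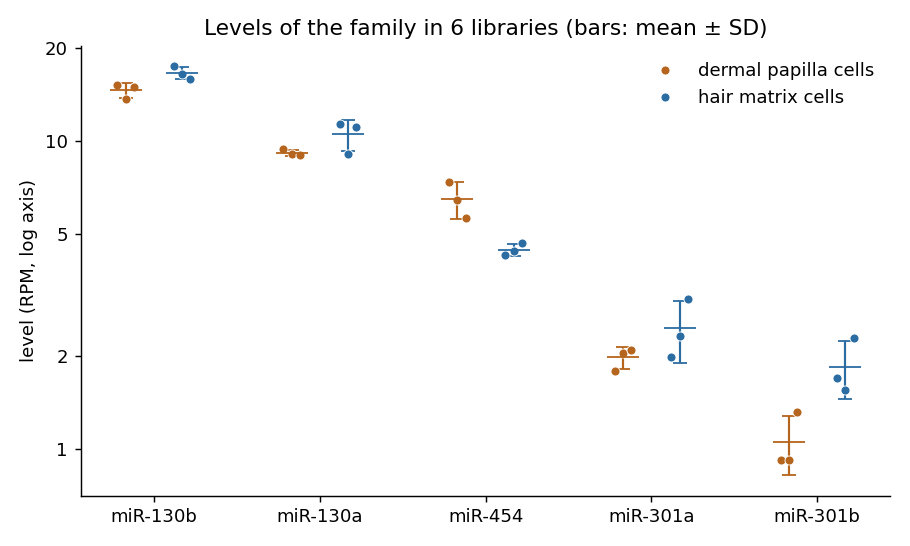
Level of each member in RPM (log axis) in dermal papilla cells (left of each pair) and hair matrix cells (right). Each point is 1 library and the bars give mean ± SD (n = 3). The order of the members is the same in both cell types, and only miR-454 has all 3 dermal papilla libraries (5.61 to 7.36 RPM) above the hair matrix libraries (4.25 to 4.67 RPM).

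The cultures carried the markers of their labels. All 7 entries of the mesenchymal list (the miR-143 cluster with miR-145, and the miR-199 group with miR-214) were higher in dermal papilla cells, with summed levels of 88573 to 91336 RPM in dermal papilla cells, against 1206 to 1423 RPM in hair matrix cells. All 9 epithelial entries (the miR-200 family, miR-205 and the miR-183 cluster) were higher in hair matrix cells, at 93.8 to 122.7 RPM in dermal papilla cells, against 26523 to 26594 RPM in hair matrix cells. Summed markers of other cells were low beside these, though not beside the family's own sum, and most differed between the groups. Those of blood and immune cells were at 20.3 to 22.97 RPM in dermal papilla cells, against 9.11 to 12.5 RPM in hair matrix cells, and those of muscle at 57.9 to 72.7 RPM in papilla, against 24.6 to 26.3 RPM in matrix. Melanocyte and neural markers were at 117 to 137 RPM in papilla, against 34.3 to 37.9 RPM in matrix, and endothelial ones at 3.68 to 4.70 RPM in papilla, against 2.57 to 4.01 RPM in matrix. The most abundant of these entries, miR-1 for muscle and miR-204 for melanocytes and nerve, passed the test as higher in dermal papilla cells. The melanocyte and neural entry miR-9-5p, at 39.8 RPM in papilla, against 33.1 RPM in matrix, did not pass it. No entry of the 4 lists was at 0 in all libraries. Their part in the family's values was not tested. In bulk cultures, a lower level per cell and fewer cells of a type cannot be told apart.

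Changes are differences of log2(RPM + 1), papilla minus matrix, a scale that shrinks the change of scarce miRNAs. They come from limma fitted to the 503 entries that reached 1 RPM in 3 or more libraries, and an entry was called at a Benjamini-Hochberg adjusted p under 0.05 and a change of at least 2-fold on that scale. All 5 members were tested. None of them was called, whereas 45.1% of tested entries were (25.2% as higher in papilla and 19.9% as higher in matrix). With no fold minimum, 2 of the 5 members, miR-454 and miR-301b, had an adjusted p under 0.05, against 82.7% of tested entries. The unadjusted p was under 0.05 for the same 2, and none was called at 2-fold by edgeR or DESeq2 on whole reads either, which called 56.3% and 56.9% of tested entries. The median size of the change was 0.21 over the members and 0.89 over all tested entries, and by size the members ranked 365th to 447th of 503.

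miR-454, which has been reported to repress SMAD4 in human cells, was the member with a positive change. It was at 7.36, 6.43 and 5.61 RPM in dermal papilla cells, against 4.25, 4.41 and 4.67 RPM in hair matrix cells. Every dermal papilla library was above every hair matrix library, and the gap between the nearest libraries was 5.61 against 4.67 RPM. The mean was 6.47 ± 0.877 RPM in dermal papilla cells, against 4.44 ± 0.208 RPM in hair matrix cells (SD, n = 3 each), a 1.46-fold difference. Its log2 change was 0.45 ± 0.10 (SE, 95% interval 0.20 to 0.70, limma adjusted p = 0.00522), short of 2-fold. On whole reads edgeR gave 0.54 (adjusted p = 0.00674) and DESeq2 0.61 (adjusted p = 0.00427). After median centring of the libraries the limma change was 0.18 (adjusted p = 0.176) and after quantile normalization 0.19 (adjusted p = 0.143). The adjusted p was under 0.05 in 17 of the 19 alternatives run for miR-454.

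miR-301b stood at the other end of the family. It was at 0.920, 0.919 and 1.32 RPM in dermal papilla cells, against 1.70, 1.55 and 2.29 RPM in hair matrix cells. The groups did not overlap, but the values rested on 22, 22 and 32 reads in dermal papilla cells and on 42, 38 and 55 reads in hair matrix cells. It reached 1 RPM in all hair matrix libraries and in 1 dermal papilla library, so it passed the filter mainly through the group where it was higher. The mean was 1.75-fold higher in hair matrix cells. The log2 change was -0.47 ± 0.13 (SE, 95% interval -0.78 to -0.16, limma adjusted p = 0.0118). On whole reads edgeR gave -0.81 (adjusted p = 0.0158) and DESeq2 -0.74 (adjusted p = 0.0634).

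miR-301a differs from miR-301b by 2 bases in the listed sequences above. It was at 1.80, 2.05 and 2.10 RPM in dermal papilla cells, against 1.98, 2.33 and 3.08 RPM in hair matrix cells. The groups overlapped, and the hair matrix library with 3.08 RPM was also the highest for miR-301b. The log2 change was -0.21 ± 0.13 (SE, 95% interval -0.51 to 0.10, limma adjusted p = 0.176), and it was -0.08 without hair matrix replicate 3.

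miR-130b, which led the family, was at 15.2, 13.7 and 15.0 RPM in dermal papilla cells, against 17.5, 16.5 and 16.0 RPM in hair matrix cells. The groups did not overlap, though the nearest libraries were at 15.2 and 16.0 RPM. Groups that do not overlap were the rule, at 84.1% of tested entries and 3 of the 5 members. Its log2 change was -0.17 ± 0.075 (SE, 95% interval -0.35 to 0.0047, limma adjusted p = 0.0654).

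miR-130a, known in human endothelial cells for repressing the homeobox genes GAX and HOXA5, was at 9.41, 9.07 and 8.99 RPM in dermal papilla cells, against 11.3, 9.11 and 11.1 RPM in hair matrix cells. Hair matrix replicate 2 lay among the dermal papilla libraries. Its log2 change was -0.18 ± 0.097 (SE, 95% interval -0.41 to 0.054, limma adjusted p = 0.129). Without hair matrix replicate 2, the overlapping library, it was -0.27 (limma adjusted p = 0.0195). It was -0.12 without hair matrix replicate 1 (limma adjusted p = 0.324) and -0.14 without replicate 3 (limma adjusted p = 0.314). Leaving out a dermal papilla library gave limma adjusted p from 0.168 to 0.231. For miR-130a, miR-130b and miR-301a these intervals, with values scaled as deposited, held no difference as large as 2-fold on this scale.

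The sizes of these changes depended on how libraries were scaled, while their signs did not. Median centring moved the median change of all tested entries to -0.29, against -0.01 as deposited, and changed the calls to 109 higher in papilla and 137 higher in matrix, where the values as deposited gave 127 higher in papilla and 100 higher in matrix. After it, the log2 changes of miR-130a, miR-130b, miR-301a and miR-301b were -0.45, -0.45, -0.48 and -0.74, each with a limma adjusted p under 0.05 and none at 2-fold. Relative to the median of all entries they were -0.16, -0.16, -0.19 and -0.46, and miR-454 was at 0.46, with either of these scalings. These 2 scalings must give the same relative values, since centring shifts all entries of a library alike. Quantile normalization gave the larger changes of -0.77 for miR-130a (limma adjusted p = 0.000287) and -0.85 for miR-130b (limma adjusted p = 4.67e-05). With it, the relative values in the same order were -0.54, -0.61, 0 and -0.30, and miR-454 was at 0.42.

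**Figure D2:**
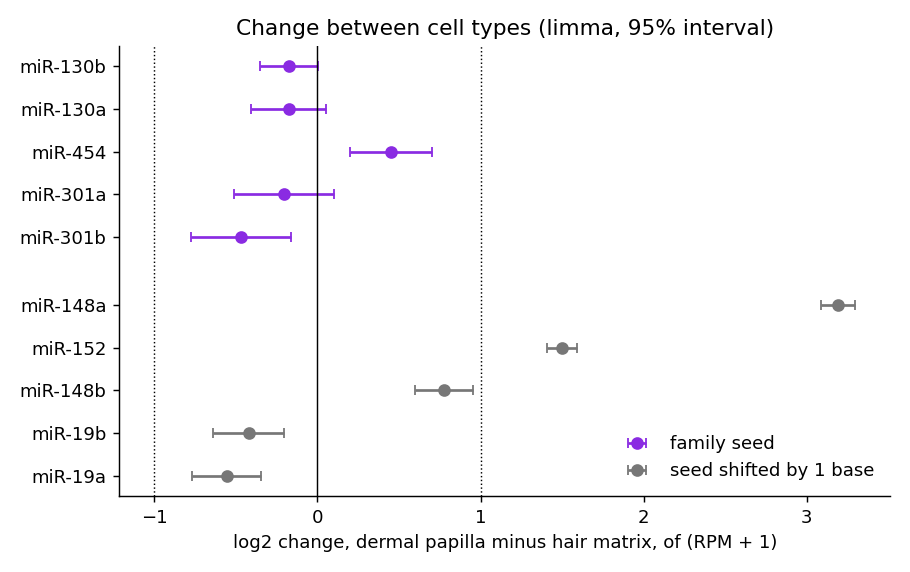
Log2 change of (RPM + 1), dermal papilla minus hair matrix, with 95% interval from limma, for the 5 members and for 5 miRNAs whose seed is shifted by 1 base. Dotted lines mark 2-fold. The family lies between -0.47 and 0.45, whereas miR-148a is at 3.19.

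**Figure D3:**
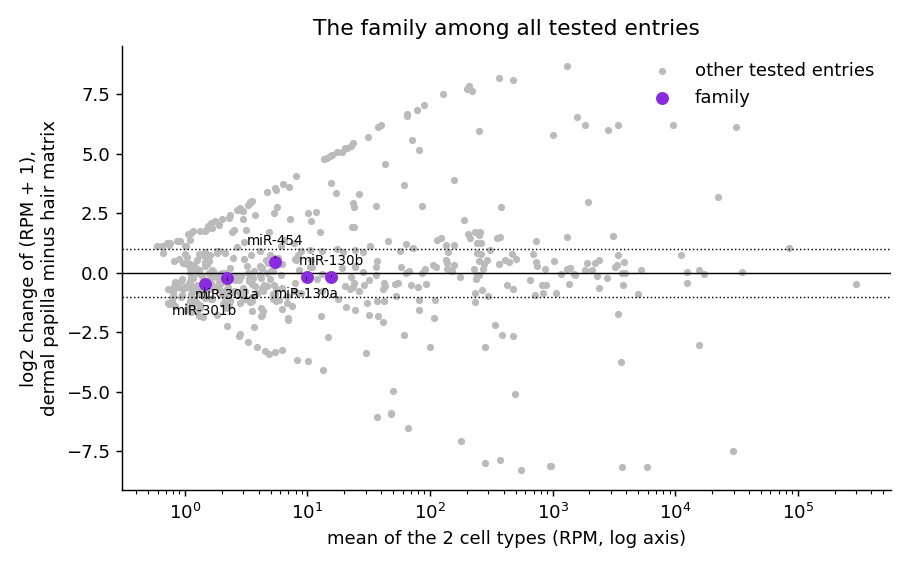
Log2 change of (RPM + 1), dermal papilla minus hair matrix, against the mean RPM of the 2 cell types (log axis) for the 503 tested entries. The family (labelled points) lies inside the dotted 2-fold lines.

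Within the family, miR-454 and miR-301b had the largest changes with values scaled as deposited, in opposite directions. The share of miR-454 in the family's reads was 21.2%, 19.97% and 16.98% in dermal papilla cells, against 11.6%, 13.0% and 12.6% in hair matrix cells. miR-301b made up 3.17% ± 0.725 in dermal papilla cells, against 5.12% ± 0.909 in hair matrix cells (SD, n = 3 each). miR-130b and miR-130a together held most of the reads in every library. Shares of a whole move together, so ratios between members within a library were also compared, as log2 of (RPM + 1).

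On this scale all 4 ratios that involve miR-454 separated the cell types without overlap, as did 2 of the other 6. The 4 share miR-454, so they are not separate results. Taken singly, 84.1% of tested entries did not overlap, and the share over ratios of other entries was not computed. An exact two-sided permutation test of the log2 ratios gave p = 0.1 for each of the 6 pairs without overlap. This is the smallest value that 3 libraries against 3 allow. After Benjamini-Hochberg adjustment over the 10 pairs it was 0.167, so none could pass the threshold. As plain ratios, with nothing added, all 4 that involve miR-301b also separated the cell types, and these share miR-301b. That of miR-130a to miR-301b was 10.2, 9.86 and 6.81 in papilla, against 6.67, 5.87 and 4.85 in matrix. miR-301a and miR-454 share a transcript in human, yet their plain ratio was 0.244, 0.318 and 0.375 in dermal papilla cells, against 0.467, 0.528 and 0.661 in hair matrix cells. With 1 RPM added to each member, the log2 ratio differed by -0.66 between the cell types, and with a pseudocount of 0.5 by -0.73. For miR-301b against miR-454, which lie at different human loci, the difference was -0.92, and without any 1 library it ranged from -1.10 to -0.79.

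The other neighbours, miR-130b and miR-301b, had plain ratios of 16.5, 14.95 and 11.4 in dermal papilla cells, against 10.3, 10.7 and 6.96 in hair matrix cells. These plain ratios did not overlap. With 1 RPM added to each member the log2 ratio differed by 0.30, with a pseudocount of 0.5 by 0.41, and with 10 by -0.01. The ratio of miR-301a to miR-301b was 1.93 ± 0.318 in dermal papilla cells, against 1.34 ± 0.167 in hair matrix cells (SD, n = 3 each). By contrast the ratio of miR-130a to miR-130b was 0.626 ± 0.0310 in dermal papilla cells, against 0.632 ± 0.0746 in hair matrix cells, and the log2 difference was -0.0027 (exact permutation p = 1, two-sided).

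**Figure D4:**
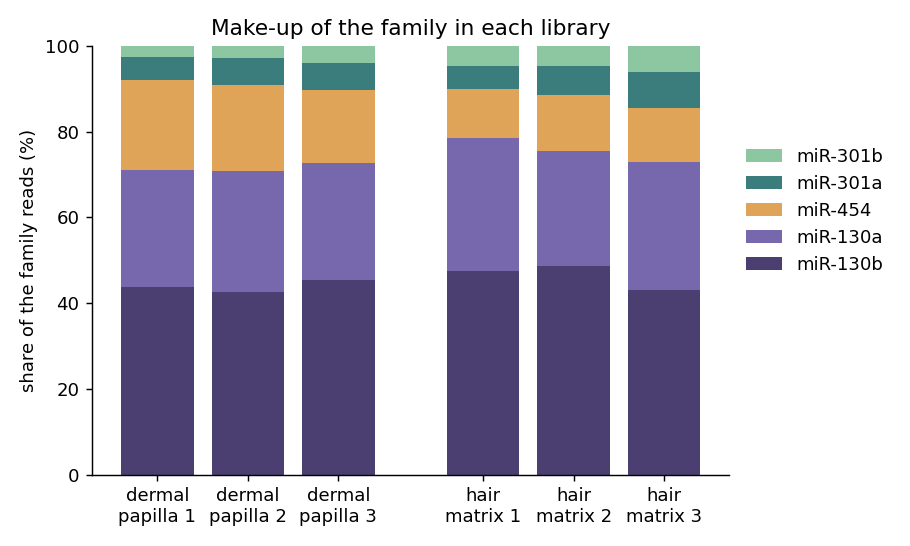
Share of the family's reads (%) taken by each member in the 3 dermal papilla libraries (left) and the 3 hair matrix libraries (right). The miR-454 segment is 16.98% to 21.2% in dermal papilla libraries and 11.6% to 13.0% in hair matrix libraries.

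The scatter between replicates was set beside the scatter that counting alone gives at these depths. For miR-301b, the coefficient of variation was 21.9% in dermal papilla cells (19.9% from counting alone), against 21.2% in hair matrix cells (14.9% from counting). For miR-130b it was 5.47% in papilla (5.33% from counting), against 4.67% in matrix (4.96% from counting). For miR-130a it was 2.46% in papilla (6.74% from counting), against 11.7% in matrix (6.24% from counting). For miR-454 it was 13.6% in papilla (8.02% from counting), against 4.69% in matrix (9.61% from counting). For miR-301a it was 8.17% in papilla (14.5% from counting), against 22.8% in matrix (12.9% from counting). The scatter was above the counting level for miR-454, miR-301b and miR-130b in dermal papilla cells. In hair matrix cells it was above that level for miR-130a, miR-301a and miR-301b. In the other cases it was below, and each value rests on only 3 libraries. These figures cover counting error only, since PCR reads without molecular identifiers are not independent molecules.

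Some miRNAs have a seed shifted by 1 base from that of the family, so that 6 of its 7 letters recur. A search of all 2853 entries for the first 6 seed letters at bases 3 to 8, or the last 6 at bases 2 to 7, found these 5 and no other, and their listed sequences show the shift, with bases 2 to 8 in capitals:
bta-miR-148a: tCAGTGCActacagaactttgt
bta-miR-148b: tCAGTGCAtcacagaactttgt
bta-miR-152: tCAGTGCAtgacagaacttggg
bta-miR-19a: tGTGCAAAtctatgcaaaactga
bta-miR-19b: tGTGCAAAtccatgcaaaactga

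In miR-148a, miR-148b and miR-152, which are known to repress the DNA methyltransferase DNMT1, the letters AGTGCA start at base 3, and in miR-19a and miR-19b, from the miR-17-92 cluster, the letters GTGCAA start at base 2. Of these 5, miR-148a and miR-152 were called, both higher in papilla, while miR-148b, miR-19a and miR-19b were under 2-fold. The share called was 40%, near the 45.1% of all tested entries. miR-148a was at 40437 ± 1495 RPM in dermal papilla cells, against 4421 ± 189 RPM in hair matrix cells (SD, n = 3 each), a level 1214 times the family's sum in dermal papilla cells and 123 times in hair matrix cells. The level of miR-152 was 2.83-fold higher in the papilla cells. miR-148b, at 871 ± 91.3 RPM in dermal papilla cells, against 507 ± 7.90 RPM in hair matrix cells, had a log2 change of 0.77. The miR-19 pair was nearer to the family in level, with miR-19a at 16.0 ± 0.471 RPM in dermal papilla cells, against 24.1 ± 2.55 RPM in hair matrix cells. The log2 changes of miR-19a and miR-19b were -0.56 and -0.42, on the same side as miR-130 and miR-301. That side also held 253 of the 503 tested entries.

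A list of other miRNAs known to act on TGF-beta and BMP signalling, or to be induced by it, had 43 entries, of which 41 were tested. Of these, 22 were not called, 10 rose in papilla relative to matrix and 9 fell, so that 46.3% were called, close to the background of 45.1%. The median log2 change was 0.03 for the list and -0.01 for all tested entries, and the median size of change was 0.94, against 0.21 in the family. Of its 6 most abundant tested entries, miR-21-5p (-0.46), miR-24-3p (-0.43), miR-26a (0.77) and miR-27b (0.03) were not called at these log2 changes. miR-199a-3p was higher in dermal papilla cells, by 6.19, and miR-200c, which represses the ZEB factors, was higher in hair matrix cells, at -8.17.

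The patterns most like those of the members were looked for among 130 entries with cattle names and at least 100 RPM, by the root mean square difference of centred log2(RPM + 1) values over the 6 libraries. For miR-454 the nearest were miR-98 (0.08), at 1200 ± 60.5 RPM in dermal papilla cells, against 852 ± 12.2 RPM in hair matrix cells, and miR-361 (0.09). For miR-130b they were miR-99a-5p (0.06) and miR-101 (0.07), and for miR-130a they were miR-101 (0.08) and miR-1271 (0.09). miR-301a was nearest to miR-29a (0.11) and miR-32 (0.13), and miR-301b to miR-7 (0.11) and miR-191 (0.13). miR-7, for example, was at 3143 ± 92.0 RPM in dermal papilla cells, against 4424 ± 370.1 RPM in hair matrix cells. The added 1 RPM shrinks the changes of scarce members more than those of these abundant entries. Likeness on this scale is therefore not likeness of fold. Mean RPM was 1.75-fold higher in hair matrix cells for miR-301b and 1.39-fold for miR-191.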

How the data were processed

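Per the labels' protocols, small RNA libraries were prepared with TruSeq small RNA reagents from 1 µg of RNA per sample. Tools named in the submitters' processing notes, with no roles, are DESeq 1.20.0, HISAT2 2.2.1.0 and Trimmomatic. Build, reference and counting rule are not given in the sources here. The deposited values, called TPM by the authors, are RPM: in each library 100% of values were whole multiples of 1 step (tolerance 0.001 read), which gave whole reads. Listed entries hold 71.7% to 73.5% of reads, and 3 reads are 0.121 to 0.125 RPM.

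limma 3.58.1 (R 4.3.3, cell type only, mean trend) was run on log2(RPM + 1). Count tests on whole reads were edgeR 4.0.16, with library totals, which called 283 entries, and DESeq2 1.42.0, which called 286. The limma fit had been checked on simulated data. Alternatives were other pseudocounts, filters, scalings and variance models, a replicate block, dropping the fold minimum, both count tests, and refits on 5 libraries over the same tested entries. Replicates differed beyond counting noise (chi-square per degree of freedom 26.6 to 76.8), which repeats of 1 culture could also do, and all 6 were counted because the labels call them biological replicates. Named were all members, the shifted-seed list, the 6 most abundant entries of the TGF-beta list and the 2 nearest patterns per member. Members and lists were chosen with earlier results of these data known. RPM were tested where TPM had been assumed.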

Additional observations from a re-analysis of the deposited data

How the results depend on the processing

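The signs of the 5 members' log2 changes were the same under every alternative run, and none was called at 2-fold. Their log2 changes ranged from -0.77 to -0.10 for miR-130a, -0.85 to -0.11 for miR-130b, -0.48 to -0.06 for miR-301a, -0.81 to -0.10 for miR-301b and 0.18 to 0.61 for miR-454. With no fold minimum miR-301b (-0.47) and miR-454 (0.45) were called, and the counts of calls were 212 higher in papilla and 204 higher in matrix. They were 77 higher in papilla and 40 higher in matrix with a pseudocount of 10, and 80 in papilla and 47 in matrix with a filter of 10 RPM, where only miR-130b was tested among the members. With a pseudocount of 10 the ratio differences reversed for miR-130a to miR-130b (0.0150), miR-130a to miR-301a (-0.0417), miR-130b to miR-301a (-0.0567) and miR-130b to miR-301b (-0.0128), and the cause was not tested. All levels of miR-301a and miR-301b lay below that pseudocount. Without any 1 library the first 3 ranged from -0.0899 to 0.0658, from -0.0565 to 0.182 and from -0.122 to 0.166. The difference for miR-130b to miR-301b stayed between 0.158 and 0.370 without any 1 library. Correlations of deviations were 0.14, 0.08 and -0.27 for same-numbered libraries and -0.43 to 0.39 for the others. With so few libraries they cannot tell whether any share an animal or culture. With the replicate number as a block the counts were 127 in papilla and 101 in matrix, with adjusted p = 0.0153 for miR-454 and 0.00396 for miR-301b in limma. Few reads limit miR-301a and miR-301b most.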
